A study of Drosophila melanogaster with 3 samples.

Results

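Peaks of the forkhead protein fkh at the starts of non-coding RNA genes were described in whole prepupae of Drosophila melanogaster. A peak belonged to the set if its summit lay within 500 bp of an annotated start of a gene of biotype ncRNA and no protein-coding, tRNA or snoRNA start lay within 500 bp. Of 9531 peaks in the optimal list, 232 met this rule. They lay in 208 intervals with distinct coordinates, some of which overlap. They were nearest to 197 genes, of which 165 had 1 such summit, 29 had 2 and 3 had 3. A further 177 peaks near an ncRNA start were left out by the rule, 175 of them because a protein-coding start also lay within 500 bp. Within the optimal list the rule used position and annotation only. The list itself was made from the replicates and ends at a signal of 160, for every class of peaks.

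Chromatin immunoprecipitation and sequencing was done on 3 biological replicates of 1 group. The flies were a transgenic line in which fkh carries eGFP at its C terminus, collected as prepupae with both sexes pooled, and the antibody used for precipitation was against GFP. The series holds no second genotype, stage or treatment, so comparisons run between classes of peaks and between replicates. Because whole animals were used, a peak cannot be assigned to a tissue, and occupancy in few cells and weak occupancy in many cannot be told apart.

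The gene fkh gave the forkhead (Fox) family of DNA-binding proteins its name, and in the fly it is best known for building the salivary glands and the gut. Forkhead proteins bind DNA through a winged-helix domain that reads a short core with a run of T. Long non-coding RNAs (lncRNA) and antisense RNAs (asRNA) are transcribed from promoters of their own, and some of them are the precursors from which microRNAs are cut.

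By kind, 181 of the 232 peaks were nearest to a lncRNA start and 33 to an asRNA start. In 16 peaks the nearest end was that of a microRNA entry, 11 precursor hairpins and 5 mature forms, which the annotation also classes as ncRNA. The 5′ end of such an entry is where the RNA is cut, not where transcription starts. The remaining 2 were at sbRNA:1 and snoRNA:Or-ACA9, both of biotype ncRNA in this annotation.

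Sequences under strong lncRNA start peaks on 2L, 3L and 3R are printed to show the range of summit sequence in the set. They run from overlapping forkhead words to no whole word in the printed bases. Each is the dm6 plus strand, 5′ to 3′, and capitals mark the forkhead word TRTTTRY, with a purine at R and a pyrimidine at Y, on either strand. The first line spans both summits at lncRNA:CR31840, at base 51 and base 250 of the run. The other lines are the 101 bases centred on a summit.
lncRNA:CR31840, 2L:14024066-14024365: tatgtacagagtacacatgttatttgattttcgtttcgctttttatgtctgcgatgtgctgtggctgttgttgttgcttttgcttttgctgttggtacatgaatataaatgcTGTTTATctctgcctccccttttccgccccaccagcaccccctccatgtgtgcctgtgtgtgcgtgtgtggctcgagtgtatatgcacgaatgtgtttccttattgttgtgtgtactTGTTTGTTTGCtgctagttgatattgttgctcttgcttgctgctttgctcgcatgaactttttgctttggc
lncRNA:CR45354, 2L:16534285-16534385: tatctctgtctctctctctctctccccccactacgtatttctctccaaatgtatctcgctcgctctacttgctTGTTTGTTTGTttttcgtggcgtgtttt
lncRNA:CR45365, 2L:8852381-8852481: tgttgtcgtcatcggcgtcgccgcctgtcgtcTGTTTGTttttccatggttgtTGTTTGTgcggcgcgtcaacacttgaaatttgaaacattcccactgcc
lncRNA:CR45588, 3R:5053771-5053871: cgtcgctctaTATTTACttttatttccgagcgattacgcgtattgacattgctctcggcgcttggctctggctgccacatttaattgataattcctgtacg
lncRNA:Hsromega, 3R:21296099-21296199: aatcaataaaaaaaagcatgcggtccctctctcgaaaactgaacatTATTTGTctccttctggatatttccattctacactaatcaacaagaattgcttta
lncRNA:CR43334, 3L:628085-628185: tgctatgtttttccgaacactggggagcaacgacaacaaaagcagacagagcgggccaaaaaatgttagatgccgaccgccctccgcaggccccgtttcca
lncRNA:CR31044, 3R:29214403-29214503: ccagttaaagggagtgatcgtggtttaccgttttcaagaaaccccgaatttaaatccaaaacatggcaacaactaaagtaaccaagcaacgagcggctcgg

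The strongest ncRNA start peak was at lncRNA:CR31840, an intergenic gene of 378 bp on the minus strand of arm 2L (dm6, 14023722 to 14024099). Its summit at 14024116, 17 bp upstream of the start, had a signal of 3929, and the signal is a score from the authors' peak caller that is comparable within a list only. This was the peak with rank 2 of all 9531. The region around it ranked 2 in replicate 1, 2 in replicate 2 and 2 in replicate 3. A second summit in the same interval, 216 bp upstream of the start, had a signal of 2011, and it shares the replicate ranks because they belong to the interval. The second summit had 2 overlapping forkhead words whose nearer centre was 13 bp away. The stronger one had no word within 50 bp, and its nearest was 57 bp away. The protein-coding start closest to the stronger summit was that of hll, 2885 bp away.

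CR31840 was also part of a group. The summits of its neighbour lncRNA:CR45352, at 14021890, 14022091 and 14022427, had signals of 1116, 714 and 259 and fell in 1 interval that ranked 209, 694 and 415 in replicates 1, 2 and 3. The 5 summits of both genes spanned 2425 bp, and the coding gene nearest to those of CR45352 was NimC3, which encodes a receptor of the Nimrod family of phagocytosis proteins.

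Beyond CR31840, the strongest peaks were as follows. lncRNA:CR44339, on arm 2R 4159 bp from the start of the Polycomb group gene Psc, had a signal of 2101 and ranked 31, 12 and 116 in replicates 1, 2 and 3. lncRNA:CR45354, 1458 bp from CG5953, had 1822 and ranked 42, 52 and 113. The end of mir-9378, a hairpin inside the gene CG17124, had 1724 and ranked 39, 112 and 92. These 3 regions stood within the first 116 of 30000 regions in each replicate list.

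The summit at mir-4962 lay 17 bp inside a microRNA entry within Tlk, which encodes the Tousled-like kinase of chromatin assembly, and had a signal of 1646 with ranks of 97, 104 and 69. lncRNA:CR45365, 10345 bp from the nearest coding start, had 1491 and ranked 59, 246 and 327. lncRNA:CR44380, 1286 bp from CG5550, had 1350 and ranked 138, 247 and 262. For CR45365 the spread was the wider one, with replicate 1 placing it higher than both others.

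The next 7 of the 15 strongest had signals between 1004 and 1164. They were lncRNA:CR43334, CR45325 (within Sesn, which encodes the stress-response protein sestrin), CR45352, CR31044, CR45588, CR46352 and mir-9377 (within Tis11, which encodes an RNA-binding protein of mRNA decay). Their replicate ranks lay between 187 and 992. CR45588 ranked 263, 992 and 476, the largest difference among them, and CR31044 ranked 377, 288 and 454, the smallest.

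**Figure D1:**
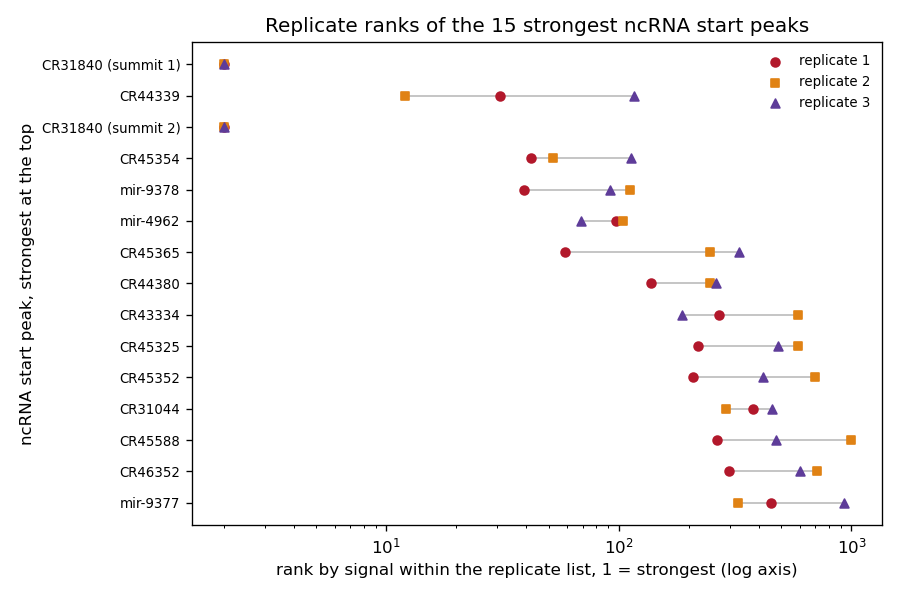
Rank by the authors' signal within each replicate list (x axis, log scale, 1 is the strongest of 30000 regions) for the 15 strongest ncRNA start peaks, strongest at the top; each symbol is 1 replicate and the grey line spans the 3. CR31840 stands at rank 2 in all 3 replicates, and the others lie between rank 12 and rank 992.

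The weakest peaks of the set were at mir-4975 with a signal of 163, lncRNA:CR43651 with 162 and lncRNA:CR44164 with 161. Among the 116 stronger peaks by signal, the widest range of ranks belonged to lncRNA:CR45793, inside Hph, which encodes a prolyl hydroxylase of the hypoxia response. It ranked 2766, 9111 and 5236 in replicates 1, 2 and 3. lncRNA:CR46240 ranked 2851, 6666 and 9043, and lncRNA:CR44017, inside gpp, a histone H3 methyltransferase gene, ranked 1995, 7847 and 4364. In these 3 intervals replicate 1 gave the best rank.

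In signal the ncRNA start peaks stood between the other classes. Their median signal was 307, with quartiles of 216 and 495 and a range of 161 to 3929. The median was 324 in the 3954 peaks within 500 bp of a protein-coding start (coding promoter peaks), 275 in the 5300 peaks with no start of any gene within 500 bp (peaks away from starts) and 294 in all optimal peaks. Of the 232, 49 (21.1%, exact 95% interval 16.1 to 26.9) were among the strongest quintile of the optimal list, which by construction holds 20% of all peaks. By kind of RNA, the median was 311 for lncRNA, 312 for asRNA and 242 for the microRNA ends.

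**Figure D2:**
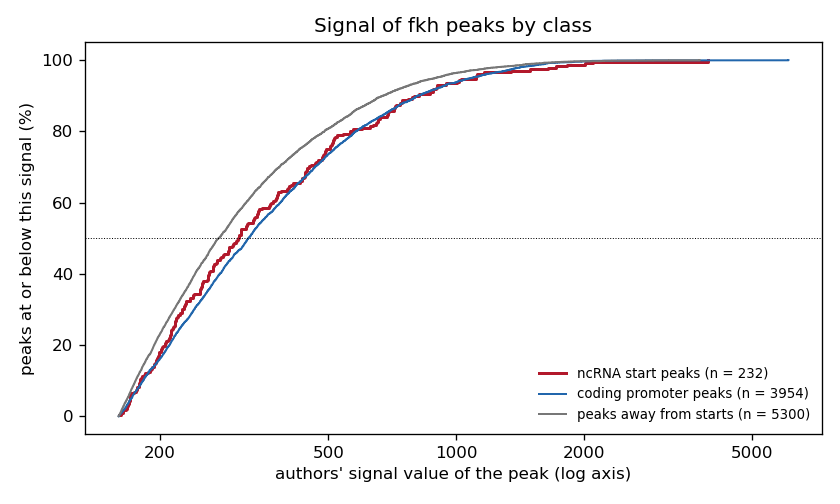
Cumulative share of peaks (y axis, %) at or below a given signal (x axis, log scale) for the 232 ncRNA start peaks, the 3954 coding promoter peaks and the 5300 peaks away from starts. The curve of the ncRNA start peaks crosses 50% at 307, between 324 for coding promoter peaks and 275 for peaks away from starts.

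A summit shared its interval with at least 1 other summit in 55 ncRNA start peaks (23.7%, 18.4 to 29.7). The share was 15.9% (14.7 to 17.0) in coding promoter peaks, 16.1% in peaks away from starts and 16.2% in all optimal peaks. Intervals were of like width, with medians of 460, 438.5 and 424 bp in the 3 classes. The 55 had a median signal of 512, against 281 in the 177 that were the sole summit of an interval. Intervals were told apart by their exact ends. Overlapping ones, as at CR43440, mir-31a and CR43651, therefore counted as separate, each with a sole summit. Since summits of 1 interval are not independent, these shares are descriptions.

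The replicates were compared by rank. Of the 232, 177 (76.3%, 70.3 to 81.6) lay among the 9531 strongest regions of all 3 replicates, 41 among those of 2 and 14 among those of 1. The share over all optimal peaks was 72.9%, and it was 77.8% in coding promoter peaks and 69.1% in peaks away from starts. All 116 peaks with a signal above the median were in all 3 replicates, against 61 of the 116 below it. The share rests on 1 shared base between a peak and a region, and it was 35.3% where 50% of each had to be shared and 45.3% for the 5000 strongest regions. The optimal list was made from these replicates, so such overlap is not independent of it. The peaks at CR44651, mir-31b and CR44763 had no region in the list of replicate 3.

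The median rank of the ncRNA start peaks was 3631 in replicate 1, 4144.5 in replicate 2 and 4392 in replicate 3. For coding promoter peaks it was 3829.5, 3433 and 3425.5. The ncRNA start peaks differed from coding promoter peaks by −198.5, 711.5 and 966.5 places, better in replicate 1 and worse in replicates 2 and 3. The mean difference of 493 ± 612 places (SD, n = 3) was smaller than its spread (exact sign-flip permutation test, two-sided, p = 0.5). Ranks belong to intervals, and with 1 summit per interval replicate 1 changed direction. The 206 ncRNA start peaks then had median ranks of 4304.5, 4450 and 5088, and coding promoter peaks had 4162.5, 3753 and 3719.5. The differences were 142, 697 and 1368.5 places, with an exact p of 0.25 (n = 3).

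For peaks away from starts the median rank was 4449.5 in replicate 1, 5000 in replicate 2 and 5214.5 in replicate 3. ncRNA start peaks ranked better in each, by −818.5, −855.5 and −822.5 places, a mean of −832 ± 20.3 places (SD, n = 3). The exact two-sided sign-flip p was 0.25, the smallest that 3 replicates allow. Replicate 1 gave the best of the 3 ranks in 109 ncRNA start peaks (47.0%), replicate 2 in 75 and replicate 3 in 46. Replicate 1 was the best in 28.3% of coding promoter peaks and in 48.7% of peaks away from starts.

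The forkhead word lay within 50 bp of the summit in 132 of 232 ncRNA start peaks (56.9%, 50.3 to 63.4). A word counted only if all its bases were in that window, while distances to a word are to its centre. Words centred 49 bp away at sbRNA:1 and 50 bp away at CR46194 therefore did not count. In windows of the same width centred 500 bp to a randomly drawn side the word lay in 59 (25.4%, 20.0 to 31.5). The summits held it 2.24 times as often as their flanks. The word was at the summit alone in 99 peaks and in the flank alone in 26 (exact McNemar test, two-sided, p = 3.16e-11). This test takes each summit as a unit, also where summits share an interval. With 1 summit per interval the ratio was 2.48 (206 peaks, exact McNemar test, p = 1.17e-12). The p-values for words, here and below, count peaks and do not measure spread between replicates. Over all optimal peaks 58.5% of summits held the word. Of the 132, 81 had 1 word, 44 had 2 and 7 had 3 or more, and mir-9378 had 4.

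Coding promoter peaks held the word in 50.9% of summits and 22.5% of flanks. The odds ratio of ncRNA start peaks over coding promoter peaks was 1.27 (two-sided Fisher's exact test adjusted over both class comparisons, p = 0.0791). Peaks away from starts held it in 64.2% of summits and 27.3% of flanks, and the odds ratio of ncRNA start peaks over them was 0.735 (the same exact test, adjusted p = 0.0506). Neither difference passed the threshold of 0.05. The comparison with coding promoter peaks changed its call with the window around starts, the spelling of the word and the use of 1 summit per interval. The comparison with peaks away from starts changed its call with the spelling alone, as given in the closing section.

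**Figure D3:**
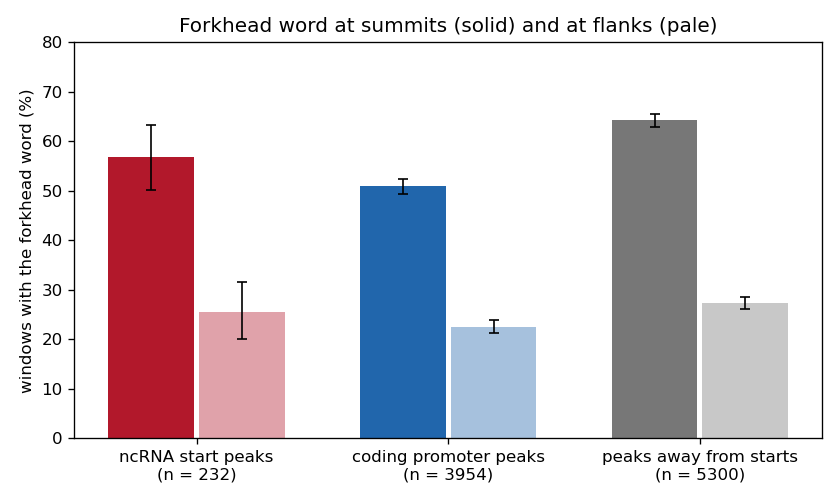
Share of windows with the forkhead word (y axis, %) at the summit (solid bars) and at the flank (pale bars) in the 3 classes of peaks; error bars are exact 95% binomial intervals, which cover counting error only. ncRNA start peaks stand at 56.9% and 25.4%, coding promoter peaks at 50.9% and 22.5%, and peaks away from starts at 64.2% and 27.3%.

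The 8 exact spellings of the word were not used equally. In ncRNA start peaks TGTTTGC was the most frequent, in 13.8% of summits (9.63 to 18.9) and 2.59% of flanks, followed by TGTTTGT in 12.1% of summits and 2.59% of flanks. TATTTAT, the spelling with the most A and T, was in 9.48% of summits and 6.03% of flanks. In coding promoter peaks TGTTTGC was in 7.94% and TGTTTAC in 11.5%, whereas ncRNA start peaks had TGTTTAC in 8.19%. Peaks away from starts had TGTTTGC in 16.1% and TGTTTAC in 12.5%. Over all optimal peaks TGTTTGC was likewise the most frequent spelling, in 12.7% of summits and 2.89% of flanks. TGTTTGT was in 11.9% of all optimal summits and TGTTTAC in 12.0%. The differences between single spellings were not tested.

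The share of peaks with the word was also taken by signal, as a description with no test. The word was in 74 of the 116 peaks above the median signal (63.8%, 54.4 to 72.5) and in 58 of the 116 below it (40.6 to 59.4%), and these intervals overlap. Below a signal of 200 it was in 16 of 42 peaks (38.1%, 23.6 to 54.4), and above 1000 in 11 of 15 (73.3%, 44.9 to 92.2). The 4 without it among those 15 were the stronger CR31840 summit, CR43334, CR45352 and CR31044. By kind, the word was in 59.1% of lncRNA, 54.5% of asRNA and 43.8% of microRNA end peaks, with intervals that overlap.

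**Figure D4:**
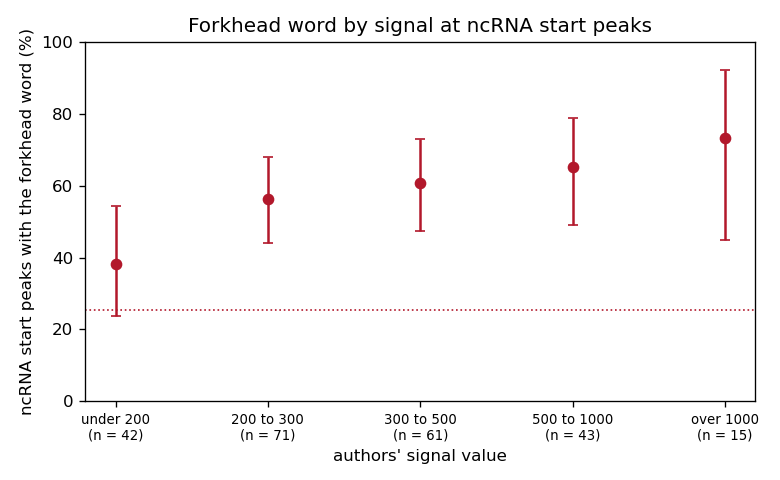
Share of ncRNA start peaks with the forkhead word within 50 bp of the summit (y axis, %) in 5 ranges of the authors' signal (x axis), with exact 95% binomial intervals; the dotted line is the 25.4% of their flanks. Point values go from 38.1% under a signal of 200 to 73.3% over 1000, with 15 peaks in the last range.

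Another 9 words were searched, both strands, in the same windows. Against their own flanks none passed the threshold in ncRNA start peaks (exact McNemar tests, smallest adjusted p = 0.0742), and 3 had an unadjusted p under 0.05. These were the CA repeat CACACA, in 16.8% of summits and 9.05% of flanks, the GATA word WGATAR (W is A or T), in 28.9% and 19.4%, and the TATA word TATAWA, in 12.9% and 22.8%. Over all optimal peaks the CA repeat was in 16.8% of summits and 9.34% of flanks, much as in the set. The GATA word was there in 22.0% and 19.3%, and the TATA word in 15.8% and 17.1%. GATA words are read by GATA factors such as GATAe of the gut and srp of the fat body and blood.

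Against coding promoter peaks, 2 of the 9 differed. The GATA word was in 28.9% of ncRNA start summits (23.1 to 35.2) and 19.1% of coding promoter summits, an odds ratio of 1.72 (Fisher's exact test adjusted over the 9 words, p = 0.00206). The DRE TATCGATA, bound by DREF at promoters of housekeeping genes, was in 0 of 232 ncRNA start summits, which allows a share of up to 1.29%, and in 147 coding promoter summits (3.72%, the same exact test, adjusted p = 0.00206). With words counted within 25 bp of the summit the DRE difference did not pass (exact test, adjusted p = 0.227), while that of the GATA word did (0.0350). Peaks away from starts had the GATA word in 23.8% (Fisher's exact test, unadjusted p = 0.0841) and the DRE in 0.283% (unadjusted p = 1). The GC content of the 101-bp windows was 41.7 ± 8.82% in ncRNA start peaks and 41.1 ± 9.21% in coding promoter peaks (SD over peaks, n = 232 and n = 3954).

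The rule bounds the distance from summit to start at 500 bp, so distances are given as a description. The median distance was 240 bp in ncRNA start peaks and 110 bp in coding promoter peaks. Within 100 bp of the start were 50 ncRNA start summits (21.6%, 16.4 to 27.4) and 1861 coding promoter summits (47.1%, 45.5 to 48.6). Summits placed evenly over the window would have a median of 250 bp and 20% within 100 bp, which is close to the values of the ncRNA start peaks. Upstream of the start were 132 of the 232 (56.9%, 50.3 to 63.4), against 61.4% of coding promoter summits. A coding promoter had more annotated starts to be near to: 1 start alone lay within 500 bp in 85.8% of ncRNA start peaks and 62.2% of coding promoter peaks. The part of this in the distances was not tested.

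**Figure D5:**
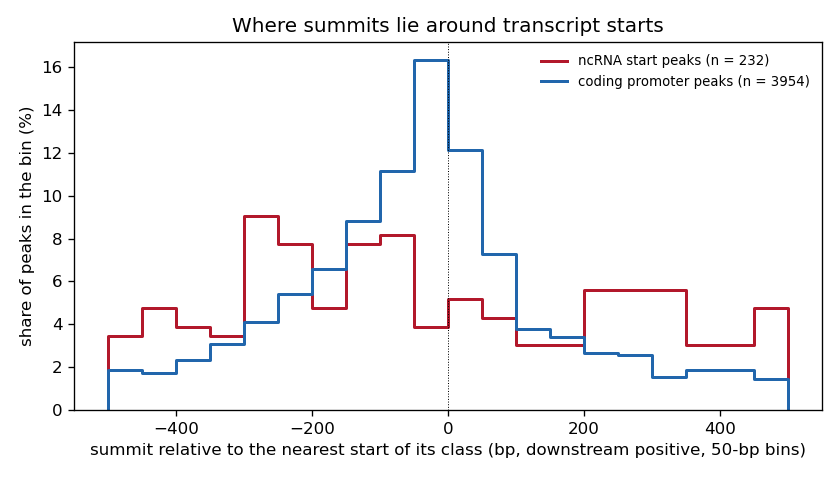
Position of the summit relative to the nearest start of its class (x axis, bp, downstream positive, bins of 50 bp) as a share of the class (y axis, %). Coding promoter summits gather at the start, with 47.1% within 100 bp, and ncRNA start summits spread over the window, with 21.6% within 100 bp.

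At the edge of the rule, the members farthest from their start were CR43904 at 500 bp with a signal of 306, CR32636 at 498 bp with 466 and CR44363 at 496 bp with 304. Just outside were summits near CR44206 at 501 bp with 531, CR43423 at 503 bp with 259 and CR43836 at 508 bp with 220. CR44206 and CR43423 also have weaker summits inside the window, with signals of 190 and 192.

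Seen from the genes, 190 of 2520 ncRNA genes other than microRNA entries (7.54%, 6.54 to 8.64) had a peak of the set, and 321 (12.7%) had any optimal peak within 500 bp of a start. Among protein-coding genes the share with an optimal peak was 26.8%. Coding and ncRNA genes were not matched for the number of annotated starts, so these shares are descriptions. By kind, a peak of the set was at 158 of 1951 lncRNA genes (8.10%, 6.93 to 9.40) and 30 of 503 asRNA genes (5.96%, 4.06 to 8.41). Any optimal peak was near 11.7% of lncRNA genes and 17.3% of asRNA genes. Many asRNA starts lie beside a coding start, and their peaks then fall outside the rule.

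Chromosome arm 2R held 59 of the peaks, 3R 54, 2L and 3L 43 each, the X chromosome 32 and chromosome 4 held 1. These were 3.16% of the optimal peaks on 2R, 2.37% on 3R, 2.48% on 2L and 2.02% on 3L. On the X chromosome they were 2.16% and on chromosome 4 they were 2.78%. Of the 232 summits, 131 belonged to a start outside coding genes, 74 to one inside a coding gene on its opposite strand and 27 to one inside a coding gene on the same strand. Summits lay in an exon of an ncRNA gene in 101 peaks and in an exon of a coding gene in 7. For these places no share over all optimal peaks is given, so the counts are descriptions. A coding start was within 2000 bp of 103 summits and farther than 10000 bp from 35. The word was in 54.4% of the 103 and in 57.1% of the 35, and the median signal was 308 and 273.

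ncRNA genes with a peak were compared with those without one, where no coding, tRNA or snoRNA start lay within 500 bp. The 174 genes with a peak had a median length of 918 bp, against 701 bp in the 1850 without. They lay inside a coding gene on the opposite strand in 32.8% (25.8 to 40.3), against 25.4% (23.4 to 27.5), and the intervals overlap. The median distance to a coding start was 2866.5 bp, against 3729.5 bp, and 62.1% had a single exon, against 64.8%.

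Some ncRNA genes carry microRNA hairpins on their own strand. Of 37 such genes 11 had a peak of the set (29.7%, 15.9 to 47.0), against 179 of the 2483 other ncRNA genes (7.21%, 6.22 to 8.30). The hosts were sorted after their signals were seen, so the counts are a description with no test. Hosts and other genes were not matched for length or number of annotated starts. A gene with more starts has more places where a peak can be near. Of the other 26, 25 had no optimal peak within 500 bp of a start, among them let7C, iab4 and iab8, and CR43270 had a peak that the rule left out.

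The strongest host was lncRNA:CR43334, the primary transcript of bantam, a microRNA that promotes growth and blocks cell death. Its start, at 628435 on the plus strand of arm 3L, had summits 300 and 98 bp upstream, with signals of 1164 and 469, in 1 interval that ranked 270, 590 and 187 in replicates 1, 2 and 3. Neither summit had a forkhead word within 50 bp. The nearest word was centred 51 bp from the stronger summit, just past the edge of the window, and 253 bp from the weaker one. Starts of CR42719, CR43337 and CR43423 nearby had 4 more peaks, with signals of 192 to 653, so that 6 summits of the set lay within 21392 bp. Of the 37 groups of summits with gaps of at most 10000 bp, this one had the most members, and the 5 summits of CR31840 and CR45352 came next. Only 12 of the 37 groups held summits of 2 or more genes, and the groups count summits of the set only.

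lncRNA:CR31044, on arm 3R from 29214562 to 29219667, carries mir-279 and mir-996, which restrain the formation of carbon dioxide-sensing neurons. Its summit, 109 bp upstream of the start, had a signal of 1115 and ranks of 377, 288 and 454, with no word within 50 bp. The mature forms are shown because this start serves several microRNAs, and mir-279 and mir-996 have the same seed (bases 2 to 8, in capitals), which differs from that of bantam.
mir-ban, 3L:642259-642281: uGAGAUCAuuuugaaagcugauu
mir-279, 3R:29215651-29215672: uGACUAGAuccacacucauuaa
mir-996, 3R:29217244-29217265: uGACUAGAuuucaugcucgucu

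lncRNA:Hsromega, the heat-shock RNA of nuclear omega speckles, holds mir-4951 and had summits 22 and 222 bp downstream of its start with signals of 903 and 647. The interval ranked 768, 451 and 671 in replicates 1, 2 and 3. Its stronger summit had 1 word with its centre 1 bp away, as printed above.

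lncRNA:CR43314, the host of mir-bft (bereft, needed for sensory bristles), had 598 with ranks of 2010, 1172 and 1716, while the hairpin end itself had no peak within 500 bp. CR43626, host of mir-282, had 525 with ranks of 2034, 1595 and 2685. CR43650, host of mir-8, a regulator of growth, had 4 summits of 213 to 361, with 1 of them nearest to the hairpin itself. Hosts whose strongest signal was 190 to 250 were CR43459 (mir-34 and mir-277), asRNA:CR46194 (mir-281-1 and mir-281-2), CR43651 (mir-14), CR45345 (mir-375) and CR44206 (mir-184). The end of mir-14 itself had a stronger summit of the set, with a signal of 450 and ranks of 1882, 2821 and 4132. The best-ranked regions that shared a base with the CR46194 interval ranked 301, 2438 and 6879 in replicates 1, 2 and 3. The peak itself ranked 6563 in the optimal list. Since 1 shared base is enough, these ranks cannot show whether replicates differed at this summit, and the cause of their spread was not tested.

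Among 33 entries of a chosen list of non-coding RNAs, 5 had a peak of the set: Hsromega, CR43334, CR31840, CR43314 and yar. The list was drawn up with earlier results known and holds CR31840, so this count is a description with no test. Over all ncRNA genes, microRNA entries included, the share with a peak of the set was 7.18%. lncRNA:yar, which lies between yellow and achaete and affects sleep, had a summit 83 bp upstream of its start with a signal of 261, 3 forkhead words and ranks of 6734, 5301 and 6596. The snoRNA host genes Uhg2, Uhg3, Uhg4 and Uhg5 had peaks of 300.2, 250.3, 483 and 308 that the rule left out, because a coding, tRNA or snoRNA start was also near. Of the rest, 23 had no optimal peak within 500 bp, and Uhg6 was not found in the annotation under that symbol.

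The entries without a peak included both roX RNAs of dosage compensation, the Hox cluster RNAs bxd and iab8, let7C and the piRNA precursor flam. They also included Uhg1, Uhg7, Uhg8, sphinx, acal, noe, CR32773, CR34335, CR33938, and the RNAs of the signal recognition particle, 7SK, RNase P and RNase MRP. Of these 23, 7 had a weaker region of the pooled list within 500 bp, below the 160 at which the optimal list ends. Their signals were 159.8 at hpRNA:CR18854, 146 at Uhg1, 145 at snRNA:7SKa, 126 at RNase MRP, 122 at CR34335, 98.9 at sphinx and 60.3 at acal.

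Peaks were also counted at genes of 5 lists. By the nearest coding start or the coding gene around the start, 4 of 232 (1.72%) lay at a gene of the ecdysone response, the steroid pathway of metamorphosis, against 1.71% of all optimal peaks. They were 2 summits of CR46322 inside Hr3 with 432 and 197, CR43904 inside the receptor gene EcR with 306, and mir-9374 inside Hr39 with 178. At Hox genes were 2 (0.862%, against 0.231%), CR45915 with 292 and mir-10 with 168, whose nearest coding start is Dfd at over 10000 bp. At gut regulators was 1 (0.431%, against 0.630%), CR42839, 588 bp from GATAe, with 217. At forkhead genes was 1 (0.431%, against 0.651%), CR43287 inside CHES-1-like with 333 and ranks of 838, 4144 and 3445. At regulators of the salivary gland there were 0, against 0.640% of all optimal peaks.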

How the data were processed

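The analysis started from the dm6 peak lists that the authors deposited; no reads were used. Per the deposited file lists, each of the 3 replicates was called against 1 shared control, 1 list was called on the replicates pooled, and an IDR (reproducibility) step gave the optimal list. Which aligner and peak caller made them is not given in the sources used here. Read depth is unknown. The deposited signal is a score of unstated scale, and the deposited −log10 q-value was 4.29 in all 9531 optimal peaks, so peaks were ordered by signal and replicates by rank. The labels' age in days does not suit a prepupa and was not used. The same lists on dm3 were left out.

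Replicate numbers are those of the labels. An optimal peak took the best rank of the regions it shared at least 1 base with. Starts came from Ensembl release 115, and sequences were read from the RefSeq copy of the dm6 assembly. Words were searched up to 50 bp either side of summits, and in a flank 500 bp to a side drawn with a fixed seed. Only words lying whole in a window were counted. Python 3.11.15, pandas 2.3.3, numpy 2.4.6, scipy 1.17.1 and matplotlib 3.10.9 were used, and p-values called adjusted used the Benjamini-Hochberg method. Intervals are exact 95% binomial (Clopper-Pearson) and cover counting error only, and the limit for a count of 0 is 3 counts. The search for the forkhead word, its exact McNemar test and the distance to the nearest start were tested on simulated data. The other steps were not tested in this way. The labels call the replicates biological.

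The peaks, lists, words and tests were chosen with earlier results of these data known. Genes named were those nearest to the 15 strongest peaks and the 3 weakest, and the 3 with the widest rank range among the 116 stronger. A chosen list of ncRNA genes, CR31840 among them, was named as well. The microRNA hosts, the groups of neighbouring summits and peaks with no replicate region were named after their values were seen.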

Additional observations from a re-analysis of the deposited data

How the results depend on the processing

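The forkhead word against flanks kept its direction and its call in all 14 alternatives run. The comparison with coding promoter peaks did so in 6 of 11 and that with peaks away from starts in 9 of 11. Each of these counts includes the alternative in which starts of other biotypes excluded a peak too. That alternative left 232 peaks and every value the same, so it could change no call. By Fisher's exact test the odds ratio of the forkhead word over coding promoter peaks passed the threshold within 250 bp of a start (1.66, adjusted p = 0.00633), within 1000 bp (1.38, 0.0135), with 1 summit per interval (1.41, 0.0432) and for the word TRTTKRY (K is G or T; 1.36, 0.0330). It reversed for TGTTTAY (0.736, 0.104). Over peaks away from starts it was 0.934 within 250 bp (adjusted p = 0.730 by the exact test), and it passed for TGTTTAY (0.640, 0.0285) and TRTTKRY (0.718, 0.0330). The cause was not tested. The other 9 words passed in 2 cases against flanks (CA repeat and GAGA) with words within 100 bp, and against coding promoter peaks 1 (GATA) passed within 25 bp and 3 (GATA, DRE and the CA repeat, exact test, adjusted p = 0.0211) within 100 bp; these were chosen after seeing the data, as was leaving out microRNA ends, which changed no call.

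There were 148 ncRNA start peaks within 250 bp and 122 among the 4765 strongest optimal peaks, whose median signal was 490. The share of ncRNA genes with a peak, 7.18% with microRNA entries, was 4.78% at 250 bp, 8.80% at 1000 bp, 3.65% with these 4765 and 12.2% with other starts allowed. The share in all 3 replicates was 98.4% with these 4765, 35.3% with 50% of each region shared, 45.3% among the 5000 strongest regions, 98.7% among all 30000, and 79.3% to 85.8% with 1 replicate left out (85.8% without replicate 3). The rank difference to coding promoter peaks was 256.5 places without replicate 3 and 839 without replicate 1; with 3 replicates its p could not go below 0.25.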

Other observations

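The pooled list held 440 further regions with a summit at an ncRNA start by the same rule that overlapped none of the optimal peaks. Their signals ran up to 159 with a median of 56.5, and 37.5% had the forkhead word within 50 bp, against 56.9% of the 232 ncRNA start peaks and 25.4% of their flanks. Among genes outside the naming rule, lncRNA:marge had 2 summits with signals of 787 and 505 and 2 words at each, and its interval ranked 723, 1044 and 1111 in replicates 1, 2 and 3. lncRNA:Vinr, on the X chromosome, had 1 summit with a signal of 490 and ranks of 2232, 1854 and 3918, and its neighbour CR44619, 2218 bp away, had 894.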
